A study of Rattus norvegicus with 26 samples.

Results

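miR-221 and miR-222 were followed in rat liver after 1/3 or 2/3 partial hepatectomy (PH), as the array entries rno-miR-221 and rno-miR-222, 2 of the 677 miRNAs on the array. The members are named entries of the array, not a set picked by a threshold. Single-colour miRNA arrays had been hybridized with RNA from the right liver lobe of male Sprague-Dawley rats, 1 array per rat. There were 26 arrays in 9 groups: 3 of normal liver, 2 at 6 h after 1/3 PH, and 3 each at 12, 24 and 36 h after 1/3 PH and at 6, 12, 24 and 36 h after 2/3 PH. For 1/3 PH the left lateral lobe was removed, which by the labels makes up 30% of the liver, and 2/3 PH was the classical larger operation. The normal livers came from rats with no PH, although their protocol label reads sham, so surgery and loss of liver mass cannot be told apart in comparisons with them. Times are those of the sample titles. The source names of some arrays give 13, 14, 25, 26, 37 or 38 h where the title gives 12, 24 or 36 h. Arrays are named below by group and replicate, and the replicate numbers do not pair arrays of different groups.

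miR-221 and miR-222 are neighbours made from 1 genomic cluster, and they belong to 1 seed family. The seed, bases 2 to 8 of the mature miRNA, is the stretch that pairs with target messages. Both are well known for lowering the CDK inhibitors p27 (Cdkn1b) and p57 (Cdkn1c), which hold cells out of the cell cycle. They are often raised in liver cancer, and endothelial and other non-parenchymal cells also make them. After PH, the hepatocytes of the remaining lobes re-enter the cell cycle, so the comparison of 2/3 with 1/3 PH asks which miRNAs accompany the stronger of these growth responses. In a bulk sample, fewer cells of a type and less RNA per cell cannot be told apart.

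The mature sequences are shown because the seed makes the pair a family while the rest of each sequence lets a probe tell them apart. They are the RefSeq entries on the GRCr8 build, 5′ to 3′, with the seed in capitals. The RefSeq names of these arms are rno-miR-221-3p and rno-miR-222-3p.
rno-miR-221: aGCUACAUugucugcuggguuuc
rno-miR-222: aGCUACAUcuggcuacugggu

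The first 8 bases were identical in both, and 11 of the 21 positions compared from the 5′ end were identical. Among the 724 mature rat entries of the table, no other shared this seed. Both hairpins lay on the plus strand of chromosome X, Mir222 from 6022621 to 6022723 and Mir221 from 6023182 to 6023290, with 458 bases between them. The mature miR-222 took up positions 6022682 to 6022702, and miR-221 took up 6023246 to 6023268.

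The other arm of each hairpin, named with a star on the array, has its own seed. These arms are shown because the array measured them separately.
rno-miR-221*: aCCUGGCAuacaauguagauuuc
rno-miR-222*: gGCUCAGUagccaguguagau

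A single array stood apart. The 75th percentile of bright probes, to which each array was scaled, was 60.0 signal units on the array of 1/3PH 12H replicate 2 and 176 to 305 on the others. That array also detected 91 miRNAs, against 118 to 155 on the others. The hepatocyte miRNAs miR-122, miR-192 and miR-194 were detected on all 26 arrays. The files spread the arrays over 6 slides and 3 scan days.

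miR-221 was close to the detection limit and miR-222 was under it. The scanner software called miR-221 detected on 16 of 26 arrays. It called miR-222 detected on 0 of 26, and both star arms on 0 of 26. The software's call was matched on every array and miRNA by 1 rule, that the signal of the best probe be over 3 times its error. For miR-221 this ratio ran from 1.43 to 5.27 with a median of 3.07. For miR-222 it ran from -1.28 to 0.52, so no array came near the limit of 3.

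Each of the 4 miRNAs was read by 20 spots per array. Of the 520 miR-221 spots on all arrays, 442 (85.0%) were called positive and significant against the background and 54 (10.4%) well above it. Of the 520 miR-222 spots, 28 (5.38%) were positive and 5 (0.962%) well above background. The shares of positive spots were 6.54% for miR-221* and 5.77% for miR-222*. The median among the 468 miRNAs that were detected on no array, a set that includes miR-222 and both star arms, was 6.73%. No member of those 468 reached the share of miR-221, and their highest share was 60.0%. This set was picked by the lack of a detection call, so low shares in it were to be foreseen. Of the spots meant to match no rat miRNA, 80.2% were called positive.

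**Figure D1:**
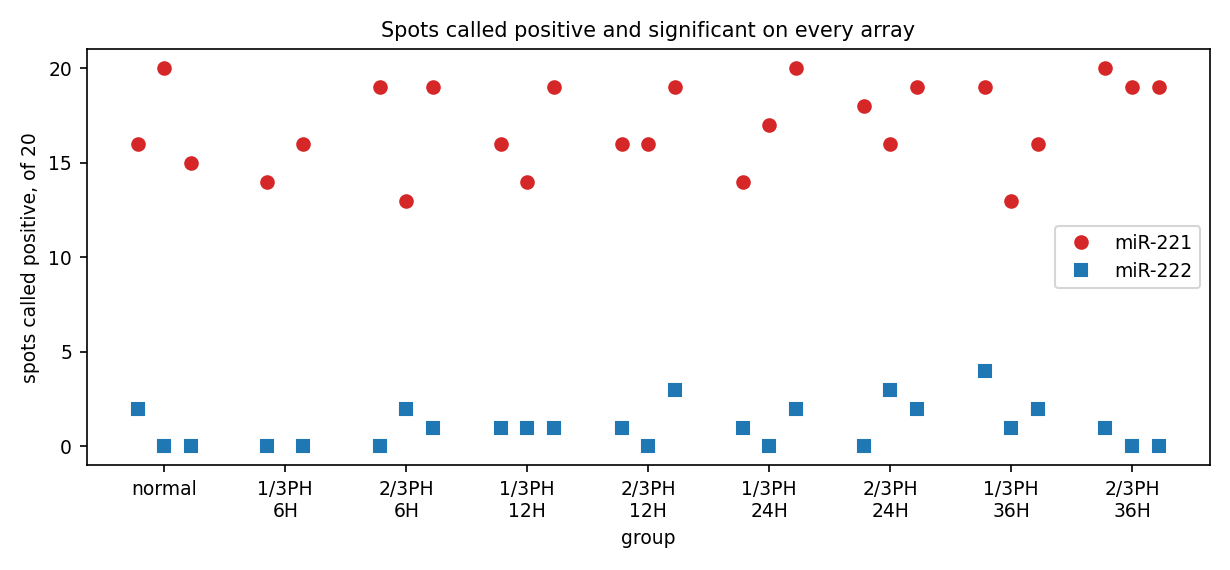
Number of spots called positive and significant against background, of 20 per array, for miR-221 (red circles) and miR-222 (blue squares) in the 9 groups. miR-221 had 13 to 20 positive spots on every array and miR-222 had 0 to 4.

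The summed signal of miR-222 over its probes, in background-subtracted units, was between -6.89 and 0.04. In the normal livers it was -3.3, -0.9 and -3.7. At 36 h after 2/3 PH it was -2.71, -4.35 and -1.31, and at 36 h after 1/3 PH it was -1.21, -4.54 and -2.70. The values of these groups overlapped, and almost all were below 0. With no array above the limit in any group, miR-222 had no fold change and no test, and a change below the limit was not detectable on these arrays. A correlation of miR-221 with miR-222 across arrays had 0 arrays with both detected and was not computed.

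The detection calls of miR-221 differed in number between the operations. A call was made on 2 of 3 normal livers. After 1/3 PH it was made on 4 of 11 arrays, namely 0 of 2 at 6 h, 2 of 3 at 12 h, 2 of 3 at 24 h and 0 of 3 at 36 h. After 2/3 PH it was made on 10 of 12, namely 2 of 3 at 6 h, 2 of 3 at 12 h, 3 of 3 at 24 h and 3 of 3 at 36 h. The median summed signal was 12.1 units after 1/3 PH and 12.5 units after 2/3 PH. The lowest signal that an array could place well above background had a median of 14.7 units after 1/3 PH and 10.5 after 2/3 PH. At 36 h after 1/3 PH signals of 12.1 and 12.2 units were not called, while a signal of 9.47 units at 12 h after 2/3 PH was called. These counts, and the part of that limit in them, were not tested. They also moved with the scan day, with 9 of 17 arrays of the first day, 2 of 3 of the second and 5 of 6 of the last called detected, and the part of the scan day in them was not tested.

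The summed signal of miR-221 was 10.3, 13.5 and 8.33 units in the normal livers. At 6 h it was 11.8 and 11.7 after 1/3 PH and 11.3, 10.5 and 13.6 after 2/3 PH. At 12 h it was 13.5, 3.84 and 14.0 after 1/3 PH and 10.1, 8.82 and 9.47 after 2/3 PH. The value of 3.84 was on the array with the low scale described above. At 24 h it was 10.9, 13.1 and 14.1 after 1/3 PH and 14.9, 11.3 and 13.9 after 2/3 PH. At 36 h it was 12.1, 8.25 and 12.2 after 1/3 PH and 19.6, 15.8 and 13.8 after 2/3 PH. All 3 arrays at 36 h after 2/3 PH thus lay above all 3 at 36 h after 1/3 PH and above all 3 normal livers, and the highest signal of the series was among them. These signals were not on a common scale. On the scaled values described below, 34.7% of the miRNAs tested separated from 1/3 PH at 36 h and 45.1% from normal liver, in either direction.

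Both probes of miR-221 were dim, and 1 of them was no brighter than spots meant to be empty. The array carries 434 negative control spots, which are meant to match no rat miRNA, and 80.2% of these were also called positive, so a positive spot alone was no sign of miR-221. Their median signal was 2.94 to 6.05 units per array. Probe A of miR-221 (A_26_P00002590), which carried all 16 detection calls, gave 2.26 to 12.6 units and was above the negative control median on 24 of 26 arrays. Probe B (A_26_P00001505) gave 1.59 to 6.99 units, was above that median on 10 of 26 arrays and passed the detection limit on 0. At 36 h after 2/3 PH both probes were above the negative control median on 3 of 3 arrays.

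**Figure D2:**
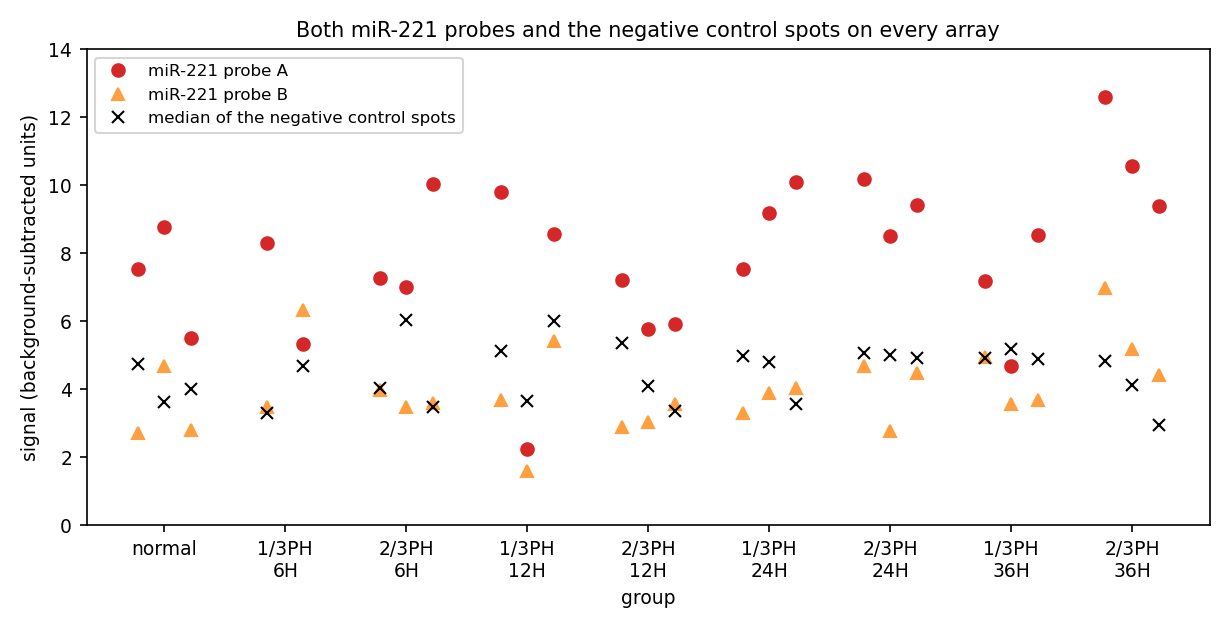
Background-subtracted signal of miR-221 probe A (red circles) and probe B (orange triangles) and the median of 434 negative control spots (crosses) on each array of the 9 groups. Probe A was above the negative controls on 24 of 26 arrays and probe B on 10, and on the 3 arrays at 36 h after 2/3 PH probe A gave 12.6, 10.6 and 9.40 units.

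The tests used a log2 scale, with and without a floor. In both cases the signal was divided by the array's scale. In the main values, called with the floor here, a signal under the lowest one that the array could place well above background, its floor, was raised to the floor. The floors were 6.48 to 19.4 units, and miR-221 was at the floor on 14 of 26 arrays, 2 normal, 9 after 1/3 PH and 3 after 2/3 PH. These values therefore carry the floor of an array more often than the signal of miR-221. In the other values, added after the data had been seen and called without the floor here, the measured signal of miR-221 was kept on all 26 arrays. For every miRNA, a signal under 1 unit was raised to 1 unit in these values.

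Without the floor, the log2 scaled signal of miR-221 was highest at 36 h after 2/3 PH, at -3.80 ± 0.20 (SD, n = 3). It was -4.06 ± 0.10 at 12 h after 1/3 PH, -4.17 ± 0.09 at 24 h after 2/3 PH and -4.25 ± 0.12 at 6 h after 2/3 PH (n = 3 each). It was -4.33 ± 0.24 at 24 h after 1/3 PH (n = 3) and -4.43 ± 0.25 at 6 h after 1/3 PH (n = 2). The lowest groups were 12 h after 2/3 PH at -4.48 ± 0.27, 36 h after 1/3 PH at -4.53 ± 0.22 and normal liver at -4.59 ± 0.56 (n = 3 each). Groups next to each other in this order overlapped in every case, so the order of neighbours was not larger than the spread between rats. The normal livers had the widest spread, from -5.20 to -4.11, and their lowest array was the only one of theirs without a detection call.

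**Figure D3:**
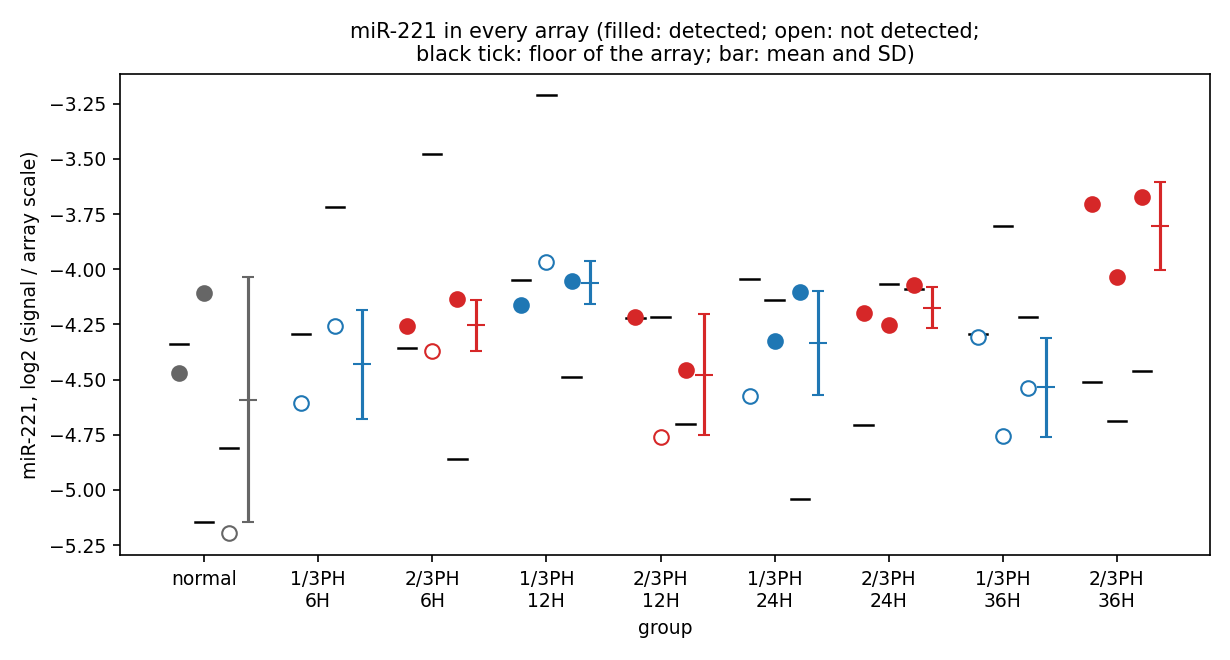
log2 of the miR-221 signal over the array scale, without the floor, for each array in the 9 groups (grey, normal liver; blue, 1/3 PH; red, 2/3 PH). Filled points were called detected and open points were not, each black tick is the floor of that array, and bars give the group mean and SD; the 3 arrays at 36 h after 2/3 PH, from -4.03 to -3.67, were all detected and all above their floors.

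miR-221 was compared between 2/3 and 1/3 PH at 36 h, and the result depended on the floor. It was among the miRNAs tested only because all arrays at 24 and 36 h after 2/3 PH detected it. The tests of those groups are therefore not independent of the choice of miRNAs tested. Without the floor the arrays after 2/3 PH lay at -3.71, -4.03 and -3.67 and those after 1/3 PH at -4.31, -4.76 and -4.54, so the groups did not overlap. Such separation was seen for 34.7% of the 144 miRNAs tested in this comparison. The log2 difference was 0.73 (1.66-fold, 95% confidence interval 1.22 to 2.26, limma adjusted p = 0.028), and limma called 15.3% of the miRNAs tested here without the floor. With the floor it was 0.30 (1.23-fold, 0.87 to 1.74, adjusted p = 0.463), and limma again called 15.3%. miR-221 was detected on 0 of 3 arrays at 36 h after 1/3 PH, and with the floor all 3 carry their floors. The value of 1.23-fold thus rests on the floors of those arrays, and its interval reaches 0.87. It is no lower bound, since a floor comes from single probes while the signal of miR-221 is a sum of 2. With the floor, each probe alone gave a difference of the other sign, as given in the last section. Probe B was under the floor on every array, and probe A was under it on all 3 arrays at 36 h after 1/3 PH. Those signs therefore hold floors in place of probe signals.

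The call at 36 h without the floor was also lost when single arrays were left out. The adjusted p was 0.137 without 1/3PH 36H replicate 2, 0.0757 without 1/3PH 36H replicate 3, 0.117 without 2/3PH 36H replicate 1 and 0.0878 without 2/3PH 36H replicate 3. The log2 difference stayed between 0.62 and 0.84 over all 26 arrays left out in turn. The 2 groups shared no slide and no scan day. With scan day as a term in the fit and no floor the difference was 0.96 (adjusted p = 0.017), an estimate that links these groups only through groups that span scan days. On the slide that held the arrays of 1/3 PH at 36 h, the 3 arrays of 2/3 PH at 24 h were 0.36 higher on the log2 scale, 3 of 3 detected against 0 of 3.

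Against normal liver, miR-221 at 36 h after 2/3 PH was 0.79 higher on the log2 scale without the floor (1.72-fold, 95% confidence interval 1.27 to 2.35, limma adjusted p = 0.013). The normal livers lay at -4.47, -4.11 and -5.20, and these groups did not overlap, as for 45.1% of the miRNAs tested. limma called 18.1% of the miRNAs without the floor. With the floor, 18.8% were called and miR-221 was not, at 0.61 (1.53-fold, 1.08 to 2.16, adjusted p = 0.0744). With the floor and scan day in the fit it passed, at 0.72 (adjusted p = 0.044). It also passed with the floor when normal replicate 2 (0.77, adjusted p = 0.037) or 1/3PH 12H replicate 2 (0.61, adjusted p = 0.034) was left out.

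Within the scan days that held both groups, the difference without the floor was 1.33 on the second day (2 arrays after 2/3 PH and 1 normal liver) and 0.43 on the last day (1 array each). The call without the floor was lost without normal replicate 3, the lowest normal liver (0.48, adjusted p = 0.0993), without 2/3PH 36H replicate 1 (0.74, adjusted p = 0.0574) and without 2/3PH 36H replicate 3 (0.72, adjusted p = 0.0511).

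The negative control spots were set beside miR-221 at 36 h. On the same log2 scale their median at 36 h after 2/3 PH was 0.08 above normal liver and 0.23 below 1/3 PH at 36 h. Probe A was 0.75 and 0.84 higher in these comparisons. Probe B was above the negative control median on 1 of 3 normal livers and on 1 of 3 arrays at 36 h after 1/3 PH. Differences of its measured signal are therefore not given, and its values in the last section hold floors in place of that signal. The signal of probe B is still part of the summed miR-221 values that were tested. At 12 h after 1/3 PH, the group that came next in order, the negative control median was 0.99 above normal liver, and miR-221 was 0.53 higher. Without the array of low scale these values were 0.53 and 0.48.

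At the earlier times after 2/3 PH, miR-221 did not pass the test against normal liver with or without the floor. With the floor the log2 differences were 0.46 at 6 h (adjusted p = 0.405), 0.12 at 12 h (adjusted p = 0.842) and 0.31 at 24 h (adjusted p = 0.443). limma called 0%, 6.94% and 18.1% of the miRNAs in these comparisons, and at 6 h 15 of 144 had an unadjusted p under 0.05. Without the floor the difference at 24 h was 0.42 (95% confidence interval -0.03 to 0.87, adjusted p = 0.240). It passed there only without normal replicate 2 (0.66, adjusted p = 0.043).

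After 1/3 PH, miR-221 did not pass the test against normal liver at any time. With the floor the log2 differences were 0.41 at 6 h (adjusted p = 0.765), 0.65 at 12 h (adjusted p = 0.100), 0.32 at 24 h (adjusted p = 0.829) and 0.31 at 36 h (adjusted p = 0.715). The shares of miRNAs called were 0%, 4.17%, 0.694% and 0%, and at 6 and 36 h 8 and 7 miRNAs had an unadjusted p under 0.05. The value at 12 h included the array of low scale, which was at its floor, and without that array it was 0.37 (adjusted p = 0.413). At 36 h after 1/3 PH the difference without the floor was 0.06 (95% confidence interval -0.39 to 0.50), and all 3 arrays lay within the range of the normal livers.

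Between the operations, miR-221 did not pass at the 3 earlier times. With the floor the log2 difference of 2/3 minus 1/3 PH was 0.05 at 6 h (adjusted p = 0.946), -0.53 at 12 h (adjusted p = 0.589) and -0.02 at 24 h (adjusted p = 0.995). limma called 0%, 0% and 2.78% of the miRNAs, and at 6 and 12 h 3 and 9 had an unadjusted p under 0.05. Without the floor the difference at 12 h was -0.42 (adjusted p = 0.657) and the groups did not overlap. The share of all miRNAs separated in this way at 12 h was not computed. At 12 h the value with the floor and without the array of low scale was -0.25 (adjusted p = 0.933). The negative control median at 12 h differed by -0.69 on the same scale and by -0.24 without that array, and its part in the result was not tested.

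**Figure D4:**
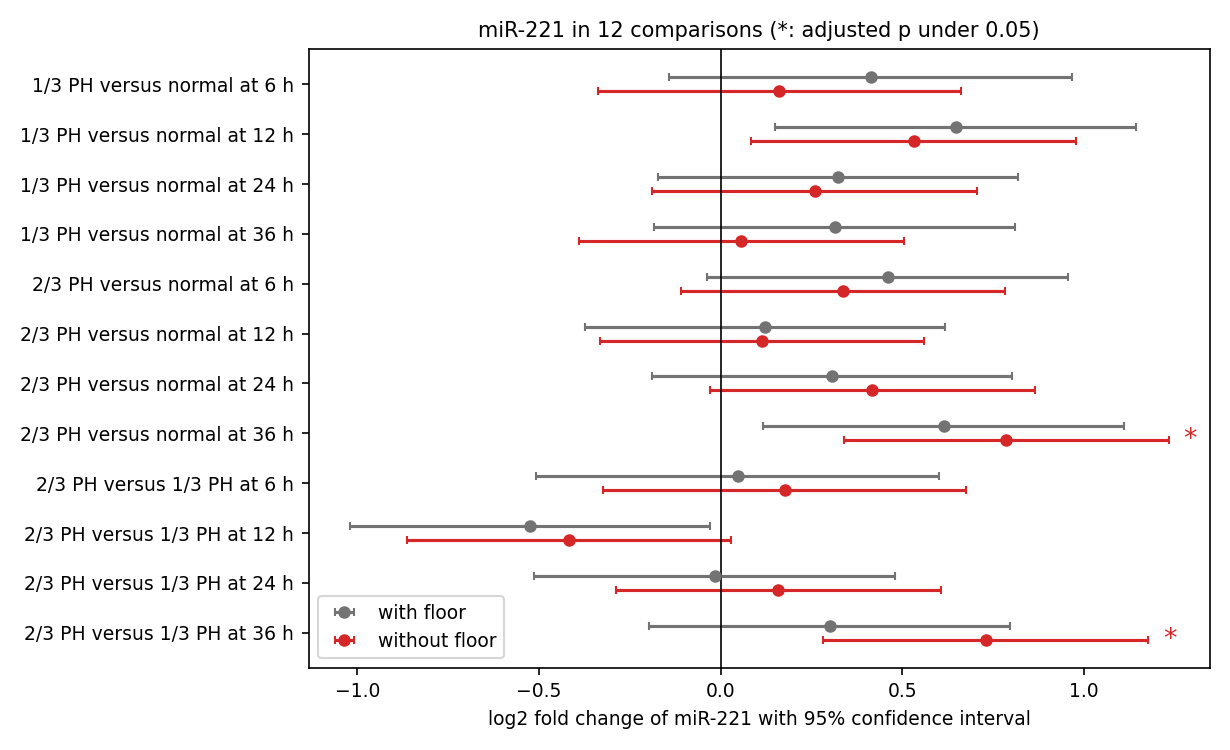
log2 fold change of miR-221 (x axis) with its 95% confidence interval in 12 comparisons (y axis), with the floor (grey) and without it (red). Asterisks mark an adjusted p under 0.05, which was reached only without the floor at 36 h after 2/3 PH, against normal liver (0.79) and against 1/3 PH (0.73).

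Time within each operation was tested as the mean of 24 and 36 h minus the mean of 6 and 12 h. The normal livers do not enter this difference, but their spread enters its SE, since all 26 arrays shared 1 fit. After 2/3 PH the log2 difference was 0.17 with the floor (adjusted p = 0.466, 34.7% of miRNAs called) and 0.38 without it (adjusted p = 0.059, 36.1% called). Without the floor it passed when normal replicate 2 or 3, 2/3PH 12H replicate 1 or 2/3PH 36H replicate 2 was left out, and the log2 difference stayed between 0.31 and 0.44. Without normal replicate 3 the difference was still 0.38, and its SE moved from 0.15 to 0.12. After 1/3 PH it was -0.21 with the floor (adjusted p = 0.576, 9.72% called). The rise of the difference between the operations from 6 to 24 h was -0.06 (adjusted p = 0.965, 0.694% called), and that from 6 to 36 h was 0.25 (adjusted p = 0.805, 4.17% called). Without the floor the latter was 0.55 (adjusted p = 0.406), so a change with time of the difference between the operations was not shown. The F test over the 9 groups gave 1.56 with the floor (adjusted p = 0.380), in a test that called 29.9% of the miRNAs.

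miR-221 at 36 h was set beside miRNAs known to accompany or restrain proliferation. The proliferation-linked list held 10 miRNAs of the miR-17-92 and miR-106b-25 clusters and miR-21, all 10 of them tested. After 2/3 PH against normal liver, 7 of 10 rose at 24 h and 6 of 10 at 36 h and 0 fell, with median log2 differences of 0.58 and 0.71, where 9.72% and 11.1% of all 144 miRNAs rose and their medians were 0.05 and 0.06. Against 1/3 PH, 3 rose at 24 h and 6 at 36 h, with medians of 0.52 and 0.63. Of all miRNAs, 2.78% and 10.4% rose there, with medians of 0.01 and -0.12. The list is not independent of these data. The paper had picked its members miR-93, miR-92a, miR-106b and miR-25 among miRNAs that differed between the operations at 24 h on these arrays. The counts at 24 h are therefore no test of the list. The arrays at 36 h are from other rats, but the list was chosen with earlier results of these data known.

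miR-93 and miR-106b, cluster mates that share a seed with miR-17-5p, were 1.16 (adjusted p = 0.000461 without the floor) and 0.57 (adjusted p = 0.0173) higher on the log2 scale after 2/3 than after 1/3 PH at 36 h. The value of miR-221, 0.73 without the floor, lay within the range of this list, from 0.22 for miR-19b to 1.85 for miR-18a, and also within that of the list below, from -0.55 to 1.33. miR-18a was detected on 14 arrays, and its difference with the floor was 1.27. The list of miRNAs known to lower cell cycle genes held 13 members, all tested. The paper had picked its member miR-101a from these data in the way given above for members of the first list. At 36 h after 2/3 PH against 1/3 PH, 2 of the 13 rose, 2 fell and the median was -0.08. Of all miRNAs, 10.4% rose, 4.86% fell and the median was -0.12. Those that rose were miR-15b (1.33), which lowers cyclins, and miR-34a (1.15), the p53 target, and those that fell were miR-195 (-0.54) and miR-26a (-0.55). These single values are without the floor, and the same 6 members of the first list and 4 of the other passed with and without it.

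**Figure D5:**
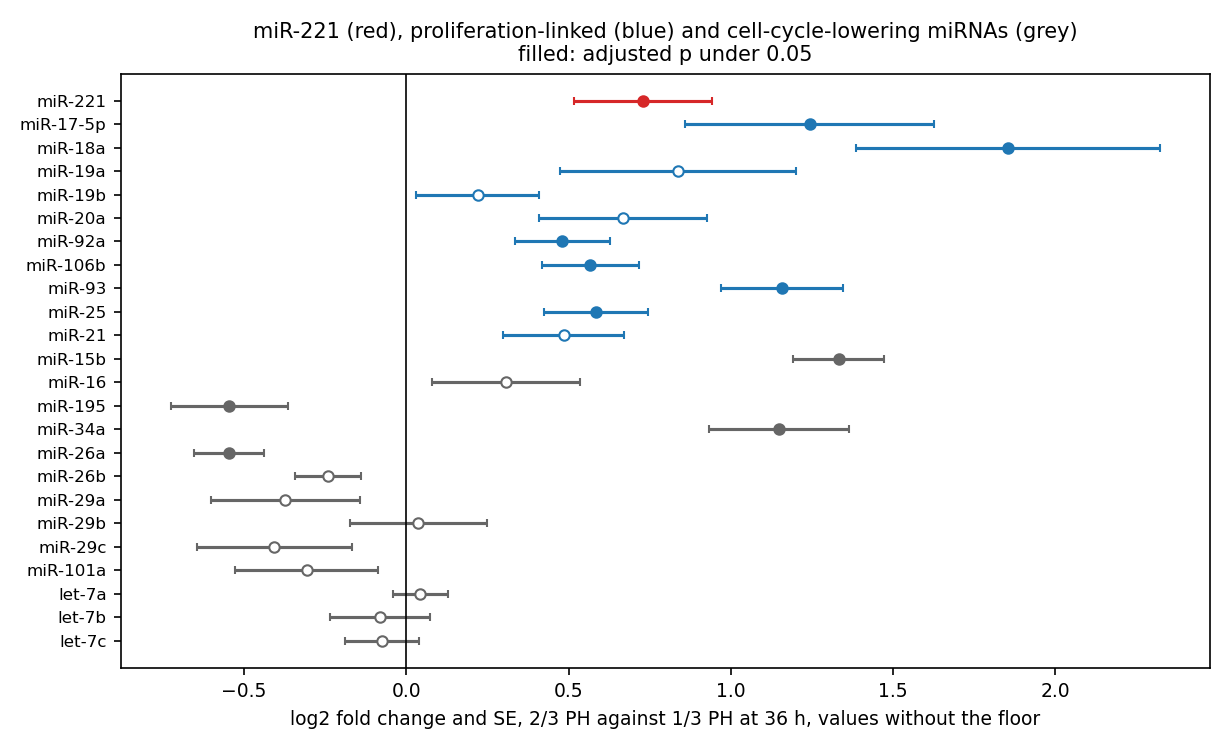
log2 fold change with SE at 36 h after 2/3 PH against 1/3 PH, without the floor (x axis), for miR-221 (red) and the members of the proliferation-linked (blue) and cell-cycle-lowering lists (grey), filled where the adjusted p was under 0.05. miR-221 (0.73) lay within the range of both lists, in which 6 of 10 and 4 of 13 passed.

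miRNAs of other liver cell types were read beside the 36 h values. miR-126, the endothelial marker, differed by -0.24 on the log2 scale with the floor against normal liver (adjusted p = 0.300) and -0.26 against 1/3 PH (adjusted p = 0.407), and its partner miR-126* was detected on 3 arrays. The summed scaled level of the endothelial list was 2.16 to 2.43 at 36 h after 2/3 PH. It was 2.47 to 3.07 at 36 h after 1/3 PH and 2.49 to 3.06 in normal liver. The part of endothelial cells in the miR-221 values was not tested. Of the leukocyte list, 4 of 6 miRNAs were tested, of which 0 rose, 1 fell against normal liver (7.64% of all miRNAs fell) and miR-155 was not on the array. Of the stellate list, 4 of 5 were tested and 0 passed in either comparison. Of the red cell list, miR-451 alone was tested and did not pass.

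Of the cell type lists, the biliary and other epithelial list had members that rose. Of its 5 miRNAs, miR-200a, miR-200b and miR-429 were tested, while miR-200c and miR-141 were detected on 0 arrays. All 3 tested were higher at 36 h after 2/3 PH than in normal liver, where 11.1% of all miRNAs rose. Against 1/3 PH at 36 h, 1 of 3, miR-200b, was higher, where 10.4% of all miRNAs rose. The summed scaled level was 0.44 to 0.65 at 36 h after 2/3 PH, 0.20 to 0.50 at 36 h after 1/3 PH and 0.15 to 0.30 in normal liver. The part of these cells in the miR-221 values was not tested.

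The miRNAs whose pattern across the 26 arrays was most like that of miR-221 depended on the floor. Without it they were miR-200b (Pearson r = 0.69), miR-7a (0.60), miR-429 (0.59), miR-34a (0.57) and miR-200a (0.55), where the median r of the other 143 miRNAs tested was -0.03 and the range -0.61 to 0.69. miR-200b, miR-429 and miR-200a belong to the miR-200 family, which keeps cells epithelial. With the floor the nearest were miR-425 (0.81), miR-466b-2* (0.76), miR-31* (0.71), miR-352 (0.68) and miR-674-3p (0.67), which were themselves at their array's floor on 12 to 25 arrays. The arrays share their scale and floor, and with the floor a shared floor enters both values, so the r values are a description. miR-222 and both star arms, under the limit on every array, could not be placed in this order.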

How the data were processed

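RNA of 26 rat livers had been labelled with Cy3 and hybridized to Agilent rat miRNA arrays. The authors deposited the output of Agilent Feature Extraction 10.7.3.1 with the background-subtracted intensity of every spot, with arrays not put on a common scale, and log2 values already normalized by a method not given in the sources used here. Arrays were grouped by title. The members and lists were chosen with earlier results of these data known.

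Unmarked spots of a probe were averaged, the probes of a miRNA (2 for miR-221) were summed, and the sum was divided by the array's 75th percentile, taken over 109 probes that stood well above background everywhere. The floor was the dimmest well-above-background probe of each array. The fit took the 144 miRNAs that some group had detected on all its arrays. miR-221 met this rule only in the groups at 24 and 36 h after 2/3 PH. They were fitted with limma 3.58.1 (R 4.3.3) in 1 model of 9 groups with 16 contrasts and an F test, two-sided, with Benjamini-Hochberg adjustment within each and a threshold of 0.05. Residual and prior degrees of freedom were 17 and 2.32, and the prior SD was 0.23 (log2). The number of arrays limits the precision. The fit was tested on simulated data. The text named miR-221, miR-222, their star arms, the 5 miRNAs with the highest Pearson r to miR-221, and list members whose values stand beside a result. Other values came from Python 3.11.15. The alternatives were the scaling, background, summary, detection filter, floor, slide and scan day, the deposited table, each probe alone and each array left out.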

Additional observations from a re-analysis of the deposited data

How the results depend on the processing

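miR-221 lay near the detection limit, so its values moved with the processing. All values are log2 differences of miR-221 unless an F is named. Of 17 results, 0 passed limma's adjusted threshold with the floor and 3 had an unadjusted p under 0.05. No paired analysis was possible because the replicate numbers outside normal liver only follow the order of the arrays and mark no shared animal. The filter on detection on every array left no value of miR-221, and the correlation with miR-222 had no arrays. The filter on detection on at least 1 array turned no sign and changed no call.

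Without the floor (chosen after seeing the data), 2/3 PH at 36 h passed against normal liver (0.79) and against 1/3 PH (0.73), and 2/3 minus 1/3 PH at 24 h turned to 0.16. Without the floor and with scan day as a fixed block, values of 0.93 and 0.96 passed in the same 2 comparisons, late against early 2/3 PH passed at 0.55 and the F at 4.46. There, 1/3 PH against normal at 36 h turned to -0.032, 2/3 PH against normal at 12 h to -0.030, 2/3 minus 1/3 PH at 24 h to 0.21 and its change from 6 to 24 h to 0.092. With the floor and scan day, 2/3 PH against normal at 36 h passed (0.72) and 2/3 minus 1/3 PH at 24 h was 0.011. With slide as a random block the latter was 0.0064.

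With the 75th percentile over all probes, a scale of 0.334 to 3.28 signal units in which most probes are background, the median of all miRNAs in 1/3 PH against normal at 6 h moved to 1.24 and 39 miRNAs were called there, against 0. miR-221 passed there (1.60), in the change from 6 to 36 h (2.01) and in the F (2.43), and turned to -0.41, -0.26, -0.20 and -0.15 in 1/3 PH at 12 and 36 h and 2/3 PH at 12 and 24 h against normal. It turned to -1.22 and 0.21 in 2/3 minus 1/3 PH at 6 and 12 h and to 0.77 in the change from 6 to 24 h. Quantile normalization gave -0.087 for 2/3 PH against normal at 12 h. Normexp gave 0.11 for 2/3 minus 1/3 PH at 24 h and -0.0023 for late against early 2/3 PH, and it moved the median of all miRNAs at 36 h after 2/3 PH to 0.63 against normal and 0.51 against 1/3 PH, with 3 and 1 miRNAs called in place of 27 and 22. The software's total gene signal gave -0.011 and -0.32 for 1/3 PH against normal at 6 and 36 h and 0.26 for 2/3 minus 1/3 PH at 24 h. The deposited log2 values, in which undetected miRNAs sit at a low value, gave -2.66, -0.14 and -2.71 for 1/3 PH against normal at 6, 12 and 36 h and -0.61 for 2/3 PH at 12 h. They gave 1.72 for 2/3 minus 1/3 PH at 24 h and 0.24 for late against early 1/3 PH.

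Each probe alone, with the floor, gave other signs. Probe B was under the floor on every array, so its values here hold array floors and no signal of probe B. Probe A was under the floor on most arrays, with all 3 at 36 h after 1/3 PH among them. For 2/3 minus 1/3 PH, probe B gave -0.23, 0.12 and -0.45 at 6, 24 and 36 h and probe A gave -0.13 and -0.29 at 6 and 36 h. For late against early 2/3 PH they gave -0.11 and -0.081, and for the changes from 6 to 24 and to 36 h 0.35 and -0.22 (probe B) and 0.10 and -0.16 (probe A). The causes of the other shifts with the processing were not tested.

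Leaving out each array in turn, with the floor, gave 0.42 to 0.77 for 2/3 PH against normal at 36 h, 0.21 to 0.45 for 2/3 minus 1/3 PH at 36 h, -0.073 to 0.28 for 2/3 PH against normal at 12 h, -0.24 to 0.33 and -0.039 to 0.026 for 2/3 minus 1/3 PH at 6 and 24 h, and -0.35 to 0.22 and -0.034 to 0.54 for its changes from 6 to 24 and to 36 h. Leaving out each array without the floor, 2/3 PH at 36 h passed against normal in 23 of 26 fits and against 1/3 PH in 22, 2/3 PH against normal at 24 h in 1, late against early 2/3 PH in 4 (without normal replicate 2 or 3, 2/3PH 12H replicate 1 or 2/3PH 36H replicate 2, adjusted p from 0.0167 to 0.156 over all fits) and the F in 2 (without normal replicate 2 or 3). There, 1/3 PH against normal reached -0.14, -0.04 and -0.25 at 6, 24 and 36 h, 2/3 PH against normal at 12 h reached -0.19 and the change from 6 to 24 h ran from -0.19 to 0.16. The counts of all miRNAs called by limma in 2/3 minus 1/3 PH at 36 h were 22 in the main values, 14 with quantile normalization, 10 in the deposited values, 13 with scan day and 9 with slide as a block.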
